A study of Mus musculus with 2 samples.

Results

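The genes described here are 32 members of the cholinergic system and the neuromuscular junction: subunits of the nicotinic and muscarinic acetylcholine receptors, the proteins that make, carry and break down acetylcholine, and the proteins that assemble the junction between nerve and muscle. They were picked by symbol from a list, through GENCODE release M21 and the gene identifier without its version, and all 32 were found among the 43346 genes measured. The study profiled RNA of the mouse neural tube, which gives rise to the brain and spinal cord, in a single group of 2 libraries. Both came from healthy B6NCrl embryos of embryonic day 11.5, with no treatment or allele named in the labels and with males and females pooled. Replicate 1 was a pool of 109 embryos and replicate 2 a pool of 88, and 10 ng of RNA above 200 bases in length, with spike-in RNAs added, went into each. No contrast between conditions exists, single embryos cannot be resolved, and the only spread is that between the pools.

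The libraries held 27638068 and 29166901 expected counts, the estimated reads per gene, of which 13729 and 15456 fell on the 32 members. Levels are given in TPM, transcripts scaled to a common library total, which allow for gene length. The tissue label was checked against markers: all 6 neural progenitor markers and all 5 neuron markers reached 1 TPM in both libraries, and so did 9 of 10 motor neuron markers. Over all protein-coding genes, 59.9% did. Skeletal muscle markers were also present, 11 of 12 at 1 TPM or more in both libraries, with summed levels of 532 TPM in replicate 1 and 443 TPM in replicate 2. Ckm, a late muscle enzyme, was the exception with 4 and 9 counts. In whole tissue, fewer cells of a type and less RNA per cell cannot be told apart.

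Acetylcholine is the transmitter of spinal motor neurons. It is made in the nerve terminal by choline acetyltransferase, loaded into vesicles, released, and split by acetylcholinesterase, and the choline is taken up again. On muscle it opens a nicotinic receptor built from the alpha1, beta1 and delta subunits with gamma in the embryo or epsilon in the adult, whereas neurons use other alpha and beta subunits, and muscarinic receptors signal through G proteins. Agrin from the nerve binds LRP4, which activates the kinase MuSK, and DOK7 and rapsyn act with it to gather receptors under the nerve ending.

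Of the 32 members 18 reached 1 TPM in both libraries, beside 59.9% of all protein-coding genes. Another 13 stayed under 1 TPM in both, and Chrm3 passed 1 TPM in replicate 1 only. The median member level was 1.89 TPM (mean of the libraries), below the 4.40 TPM of all protein-coding genes. Agrn was the highest member, at the 89.3 percentile of protein-coding genes. With the posterior mean TPM deposited in the same files, 20 members were detected in place of 18. No member was at 0 in both libraries, and 6 had 0 counts in 1 library.

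**Figure D1:**
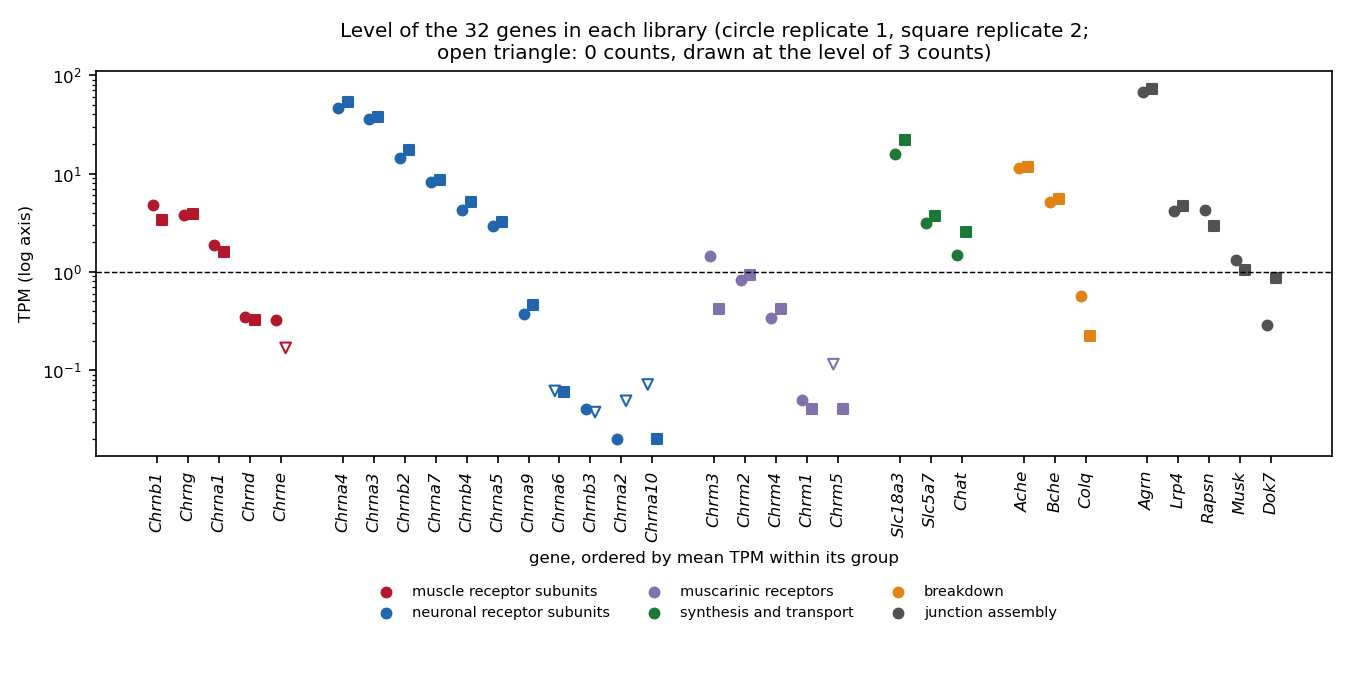
TPM of the 32 members in replicates 1 and 2, on a log axis, grouped by role, with a circle for replicate 1, a square for replicate 2, and an open triangle at the level of 3 counts where a library had 0. The dashed line is at 1 TPM. Agrn, Chrna4, Chrna3, Slc18a3 and Chrnb2 lie at the top, and 5 neuronal subunits lie below 1 TPM in both libraries, as do the muscarinic receptors apart from Chrm3 in replicate 1.

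All 3 genes for making and recycling acetylcholine reached 1 TPM in both libraries, and the vesicular transporter stood far above the enzyme. Slc18a3, which encodes the vesicular acetylcholine transporter, had 15.8 TPM in replicate 1 and 22.1 TPM in replicate 2 (mean 19.0 ± 4.47, SD, n = 2). Chat, the choline acetyltransferase gene, had 1.48 and 2.57 TPM (2.03 ± 0.77). Slc5a7, the high-affinity choline transporter, had 3.12 and 3.71 TPM (3.42 ± 0.42). All 3 were higher in replicate 2. Within each library Slc18a3 stood above Chat by 3.42 and 3.11 on the log2 scale of TPM (mean 3.26 ± 0.22, SD, n = 2, a 9.59-fold difference), more than the spread between the pools. Slc18a3 was 5.49-fold above Slc5a7 on the same scale.

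The pair shares a locus. In GENCODE M21 on GRCm38, Slc18a3 (chr14:32462438-32464850, minus strand) is a single exon inside the first intron of Chat (chr14:32408203-32465989, minus strand), 956 bases from the first Chat exon and 1524 bases from the next. Reads from unspliced Chat RNA across that stretch would count for Slc18a3, and this share was not measured.

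Among the 11 neuronal nicotinic subunits, 6 were detected and 5 were not. Chrna4, the alpha4 subunit, had 46.3 TPM in replicate 1 and 53.1 TPM in replicate 2 (49.7 ± 4.79). Chrna3, the alpha3 subunit typical of autonomic ganglia, had 35.7 and 37.4 TPM (36.6 ± 1.24). Chrnb2, the beta2 subunit that pairs with alpha4 in the brain, had 14.5 and 17.5 TPM (16.0 ± 2.09). These 3 held most of the group's summed level of 112 and 125 TPM. Lower down were Chrna7, the alpha7 subunit that forms receptors by itself, with 8.20 and 8.50 TPM, then Chrnb4 with 4.29 and 5.16 TPM and Chrna5, an accessory subunit, with 2.92 and 3.19 TPM. In that order each neighbouring pair kept its order in both libraries. Reads of Chrnb2 cannot be told apart from those of Adar where their exons overlap on opposite strands, since a strand setting was not given in the sources used here.

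The top of that order depends on how transcripts are counted. A 712-base Chrna4 entry annotated as a processed transcript took 51.5% and 53.8% of the gene's TPM from 254 and 314 counts, whereas the 4565-base coding transcript took 43.6% and 41.3% from 1567 and 1759 counts. With protein-coding transcripts alone, an alternative chosen after seeing the data, Chrna4 had 22.5 and 24.5 TPM. It then lay below Chrna3, at 0.64-fold, in place of 1.36-fold above. Chrna4 stayed above Chrnb2 either way, by 3.11-fold with every transcript and by 1.47-fold with coding transcripts.

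Chrna5, Chrna3 and Chrnb4 lie side by side on chromosome 9, Chrna5 on the plus strand and the others on the minus strand. Chrna5 ends 2331 bases from Chrna3, and Chrna3 lies 1591 bases from Chrnb4. Their levels were unequal. Chrna3 was 12.0-fold above Chrna5 (log2 3.58 ± 0.04, SD, n = 2) and 7.77-fold above Chrnb4 (log2 2.96 ± 0.14). These folds rest on the deposited transcript lengths, 3123 bases for Chrna3 and 2738 for Chrna5. GENCODE M21 gives the same transcripts 4358 and 1877 bases, and the SD does not cover that difference.

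The remaining 5 neuronal subunits were close to the counting limit. Chrna9, the alpha9 subunit of cochlear hair cells, had 8 and 6 counts (0.37 and 0.46 TPM, or 1.42 and 1.30 TPM as posterior means), and its partner Chrna10 had 0 and 1. Chrna2 had 1 count in replicate 1 and 0 in replicate 2. The neighbours Chrnb3 and Chrna6, on chromosome 8, had 3 and 0 counts and 0 and 3 counts. A count of 0 in replicate 2 allows up to 3 counts, or 0.05 TPM for Chrna2 and 0.04 TPM for Chrnb3, from counting error alone. Exons of Chrna10 overlap those of Art1 on the opposite strand.

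Of the embryonic subunits of the muscle receptor, RNA of Chrna1, Chrnb1 and Chrng was detected at 1 TPM in both libraries and that of Chrnd was not. Chrna1, the alpha1 subunit that binds acetylcholine, had 1.89 TPM in replicate 1 and 1.60 TPM in replicate 2 (1.75 ± 0.21). Chrnb1, the beta1 subunit, had 4.80 and 3.36 TPM (4.08 ± 1.02), and Chrng, the embryonic gamma subunit, had 3.78 and 3.87 TPM (3.83 ± 0.06). Chrnd, the delta subunit, was the low one of the embryonic set at 0.35 and 0.32 TPM from 17 and 16 counts. It lies on chromosome 1 beside Chrng (4586 bases apart, same strand), and Chrng was 11.4-fold above it (log2 3.51 ± 0.12, SD, n = 2).

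Chrne, the adult epsilon subunit, had 3 counts in replicate 1 and 0 in replicate 2. All 3 counts were assigned to a 641-base entry annotated as a retained intron, and its coding transcripts had 0 in both libraries. Chrng, with 128 and 129 counts, was 11.9-fold above Chrne in replicate 1 on the TPM scale (95% exact counting interval 3.97 to 58.4). In replicate 2 Chrne was taken at the 3 counts that a count of 0 allows, which put Chrng 23.0-fold higher. With Chrng at the lower end of its own counting interval it was 18.4-fold. Both values rest on an effective length for Chrne of 992.5 bases in replicate 2, against 542 in replicate 1. A shorter length would lower them, so they are not strict lower bounds and cannot be compared with replicate 1. Posterior mean TPM in replicate 2 were 4.48 for Chrng and 0.30 for Chrne.

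The sequences just before the RefSeq start sites of Chrna1, Chrng and Chrne are shown because Chrna1 and Chrng were detected and the adult subunit Chrne was not. The embryonic set as a whole was not set apart, since Chrnd was also under 1 TPM (0.35 and 0.32 TPM). Each is the 250 bases upstream of the RefSeq start on GRCm38.p6, written 5′ to 3′ on the gene's strand. For Chrng the window lies inside the GENCODE M21 gene, which starts at chr1:87204657, so the annotations differ on its start. Capitals mark CANNTG, the E-box that muscle regulatory factors such as MyoD and myogenin are known to bind, and CCGGAA, the N-box known from synaptic genes of muscle. Windows are chr2:73580339-73580588 (minus), chr1:87205561-87205810 (plus) and chr11:70619195-70619444 (minus).
Chrna1: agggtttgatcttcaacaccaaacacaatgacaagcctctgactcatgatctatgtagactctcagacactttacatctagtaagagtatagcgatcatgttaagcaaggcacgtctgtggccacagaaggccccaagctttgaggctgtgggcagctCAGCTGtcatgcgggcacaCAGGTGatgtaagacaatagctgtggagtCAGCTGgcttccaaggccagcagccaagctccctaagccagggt
Chrng: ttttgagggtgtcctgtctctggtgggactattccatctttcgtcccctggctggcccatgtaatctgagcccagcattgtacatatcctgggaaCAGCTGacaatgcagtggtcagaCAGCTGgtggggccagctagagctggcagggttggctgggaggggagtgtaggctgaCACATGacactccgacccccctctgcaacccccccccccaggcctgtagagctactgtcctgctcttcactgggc
Chrne: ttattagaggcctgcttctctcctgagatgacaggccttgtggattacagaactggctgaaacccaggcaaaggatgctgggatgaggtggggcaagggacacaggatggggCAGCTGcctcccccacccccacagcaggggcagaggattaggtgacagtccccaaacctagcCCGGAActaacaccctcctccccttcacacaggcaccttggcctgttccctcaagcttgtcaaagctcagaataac

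A script searched both strands for CANNTG, for CAGCTG and for CACCTG, which are forms of CANNTG, and for CCGGAA; these motifs were chosen with the levels known. Chrna1 and Chrng each held 3 CANNTG matches, of which 2 were CAGCTG. The window of Chrnb1, a subunit at a like level, held 3 CANNTG and 0 CAGCTG, so CAGCTG was not shared by the embryonic subunits. At least 3 CANNTG occur in 12.2% of all 32851 RefSeq windows of this length, and at least 2 CAGCTG in 1.26%. The Chrne window held 1 CAGCTG, a form found in 13.0% of windows, and 1 CCGGAA, found in 12.0%. Over the members, 24 had an entry, with 27 windows in all, of which 21 held CANNTG (66.2% of all windows do), 7 held CAGCTG, 8 held CACCTG (17.2%) and 1 held CCGGAA. Such matches describe letters, not bound sites.

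No muscarinic receptor was detected at 1 TPM in both libraries. Chrm2, the receptor of heart and presynaptic terminals, came closest with 0.82 and 0.93 TPM from 80 and 64 counts. In replicate 2, 0.33 TPM of Chrm2 came from 3.54 counts on a 697-base processed transcript. Its coding transcript had 0.82 and 0.60 TPM. Chrm3, the receptor of smooth muscle and glands, had 1.45 TPM in replicate 1 and 0.42 TPM in replicate 2 from 43 and 28 counts. In replicate 1, 0.78 TPM of Chrm3 came from 6.56 counts on a 584-base processed transcript, so the libraries differed more in TPM than in counts. Chrm4 had 8 and 10 counts (0.34 and 0.42 TPM), Chrm1 had 5 and 3, and Chrm5 had 0 and 1. Exons of Chrm1 and Chrm2 overlap those of the genes Gm22820 and 9330158H04Rik on the opposite strand.

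Both cholinesterases were detected, and the gene of their collagen anchor was not in the TPM used here. Ache, acetylcholinesterase, had 11.3 and 11.6 TPM (11.5 ± 0.21, SD, n = 2). Bche, butyrylcholinesterase, had 5.17 and 5.49 TPM (5.33 ± 0.23). Ache was 2.15-fold above Bche (log2 1.11 ± 0.03), more than the spread between the pools. Colq, the collagen tail that fixes acetylcholinesterase at the junction, had 0.57 and 0.22 TPM from 27 and 11 counts. The posterior mean estimate in the same files put Colq at 1.55 and 1.12 TPM, past the 1 TPM limit. Prima1, the membrane anchor of acetylcholinesterase in the brain, had 1.51 and 1.62 TPM.

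Among the 5 junction assembly genes, Agrn was far above its receptor complex. Agrn, the agrin gene, had 66.8 TPM in replicate 1 and 72.7 TPM in replicate 2 (69.8 ± 4.20). Lrp4, the agrin receptor, had 4.17 and 4.62 TPM (4.40 ± 0.32), and Musk, its partner kinase, had 1.32 and 1.04 TPM (1.18 ± 0.20). Rapsn, the rapsyn gene, had 4.26 and 2.90 TPM (3.58 ± 0.96), and its exons overlap those of Gm13778 on the opposite strand. Dok7, the adaptor that activates MuSK, had 13 and 15 counts. Its TPM was 0.29 and 0.87, since in replicate 2 a 390-base transcript with 3 counts gave 0.57 TPM.

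Agrn codes for forms that differ by short exons, and the forms with the 8 and 11 residues encoded by the exons near the 3′ end are known to be made by neurons and to cluster receptors. These exons and the 12-base exon before them were read from GENCODE M21 transcripts and lie on the minus strand at chr4:156169546-156169557, chr4:156168546-156168569 and chr4:156167777-156167809. They are printed because the shares given below are those of transcripts that hold each exon. The exon is in capitals between 15 bases of the neighbouring exons or intron, as one of the transcripts holds them.
12-base exon: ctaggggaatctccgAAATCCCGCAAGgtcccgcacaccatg
24-base exon: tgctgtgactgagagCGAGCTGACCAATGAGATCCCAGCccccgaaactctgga
33-base exon: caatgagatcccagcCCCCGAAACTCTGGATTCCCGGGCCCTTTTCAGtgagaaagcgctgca

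The 3 exons code for 4, 8 and 11 residues. Transcripts with the 24-base exon took 64.9% of Agrn TPM in replicate 1 and 70.1% in replicate 2 (mean 67.5% ± 3.69, SD, n = 2). Transcripts with the 33-base exon took 6.21% and 10.9% (8.57% ± 3.33), and those with the 12-base exon took 13.0% and 16.8% (14.9% ± 2.66). Most of the 24-base share lay in a 2071-base entry annotated as a retained intron, with 58.7% and 59.2% of the gene's TPM.

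Among coding transcripts alone, the 7262-base form with all 3 exons took 18.4% of Agrn coding TPM in replicate 1 and 32.4% in replicate 2, from 517 and 1021 counts. The 6891-base form with none of the 3 took 72.9% and 67.6%, and thus led among coding transcripts in both libraries. These forms differ in length by more than the 3 exons. A 7193-base coding form, also with none of the 3, had 0 TPM in both libraries. The split is thus not a measure of these exons alone. How reads shared by these transcripts were divided is an estimate of the deposited quantification. Over coding transcripts Agrn had 22.5 and 24.5 TPM and was 5.77-fold above Lrp4 and 23.8-fold above Musk, where all transcripts gave 15.9-fold and 59.5-fold.

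**Figure D2:**
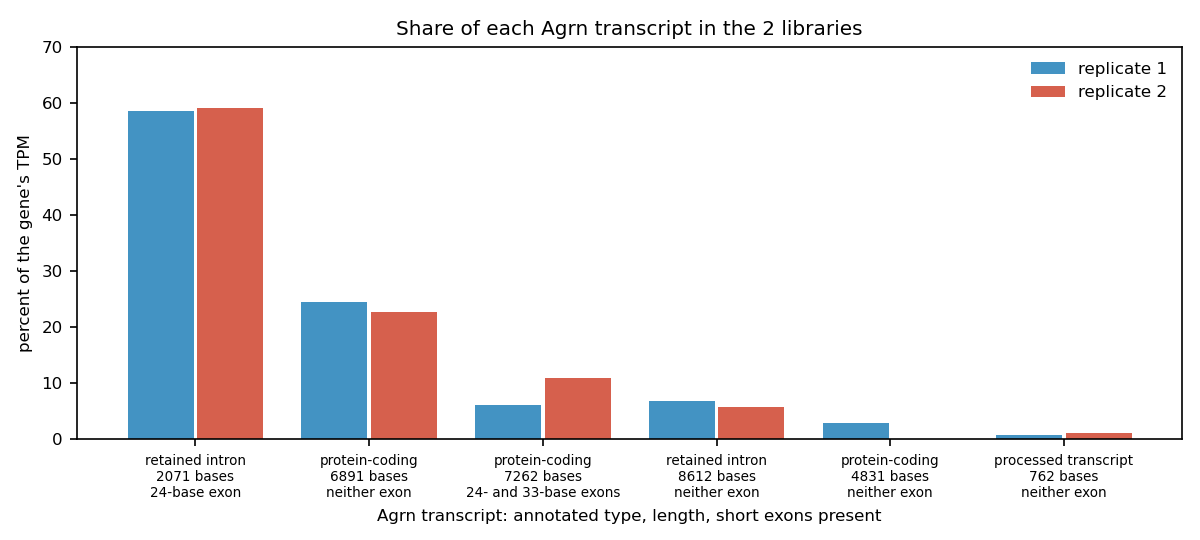
Share of Agrn TPM, in percent, taken by each annotated transcript in replicates 1 and 2, with 1 bar per library. The 2071-base retained-intron entry takes 58.7% and 59.2%, and the 7262-base coding form with the short exons takes 6.21% in replicate 1 and 10.9% in replicate 2.

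Among members listing several transcripts and averaging at least 1 TPM, 9 in number, 7 were led by the same transcript in both. Ache was led by another coding form in replicate 1 than in replicate 2, and its 2186-base form took 46.1% and 83.7% of the gene. In Musk the form leading in replicate 2 took 24.6% in replicate 1, where another form led, and 82.0% in replicate 2.

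Set side by side, the group medians lay within a few TPM of each other. The median member level was 3.06 TPM for neuronal subunits (SD of the library medians 0.19), 1.75 TPM for muscle subunits (0.21), 3.58 TPM for junction assembly (0.90), 3.42 TPM for synthesis and transport (0.42), 5.33 TPM for breakdown (0.23) and 0.38 TPM for muscarinic receptors (0.06). Neuronal subunits stood above muscle subunits by 0.44 and 0.69 in the 2 libraries, as differences of medians of log2(TPM + 1) (mean 0.56 ± 0.18). Junction genes stood above muscle subunits by 0.84 and 0.58 (0.71 ± 0.18). Junction and neuronal genes did not keep an order, with 0.40 in replicate 1 and -0.10 in replicate 2. When members under 10 counts were left out, the difference from muscle subunits was 1.83 and that of junction from neuronal genes was -1.49. No test was made, since members are not replicates.

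The pools themselves differed in some members, as they did in many other genes. For each gene the ratio of replicate 2 to replicate 1 was taken from counts scaled by TMM, with a 95% exact (Clopper-Pearson) interval that covers counting error only. At 10 counts in at least 1 library, 24 members could be compared and 8 could not. Past 1.5-fold in either direction were 5 of the 24, beside 12.0% of the 17219 genes compared. Intervals left out 1 for 7 of the 24, near the 30.7% of all genes compared. Among the 8 members with a mean of 50 to 200 counts, Chrnb1, Rapsn and Chat were past 1.5-fold with intervals that left out 1, beside 11.2% and 23.1% of all genes in that range. With 1 library on each side, the ratio compares these libraries and has no replicate check.

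Higher in replicate 2 past 1.5-fold was Chat alone (5.43% of all genes), with 70 and 125 counts and a ratio of 1.68 (1.24 to 2.28). Slc18a3 followed with 636 and 919 counts and a ratio of 1.36 (1.23 to 1.51), and Slc5a7 had 276 and 338 counts and 1.15 (0.98 to 1.36). Intervals lay wholly above 1 for Chat, Slc18a3, Chrnb2 (1.17, 1.09 to 1.26) and Agrn (1.06, 1.02 to 1.10), beside 15.6% of all genes. All 6 neuronal subunits compared had ratios above 1, between 1.01 for Chrna7 and 1.17 for Chrnb2, beside 49.6% of all genes, and 5 of those intervals held 1.

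Lower in replicate 2 past 1.5-fold were 4 members (6.53% of all genes). Chrnb1 had 159 and 108 counts, a ratio of 0.64 (0.50 to 0.82). Rapsn had 111 and 77 counts, a ratio of 0.65 (0.48 to 0.88), and Colq had 27 and 11 counts, a ratio of 0.38 (0.17 to 0.80). Chrm3, at 0.61, had an interval that held 1 (0.37 to 1.01). Intervals lay wholly below 1 for Chrnb1, Rapsn and Colq, beside 15.2% of all genes. Musk at 0.73 (0.50 to 1.06), Chrna1 at 0.82 (0.64 to 1.05) and Chrng at 0.95 (0.74 to 1.22) had intervals that held 1.

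Scaling by the spike-ins alone raised every ratio by 0.20 on the log2 scale and put 14135 of 17219 genes above 1, against 8542 with TMM. Chrnb1 (0.73), Rapsn (0.75) and Chrm3 (0.70) were then inside 1.5-fold, and Slc18a3 (1.56) passed it beside Chat (1.93) and Colq (0.44). All 4 muscle subunits compared had ratios below 1 with TMM and 2 of 4 with spike-ins, so the direction of that group holds only relative to the typical gene.

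**Figure D3:**
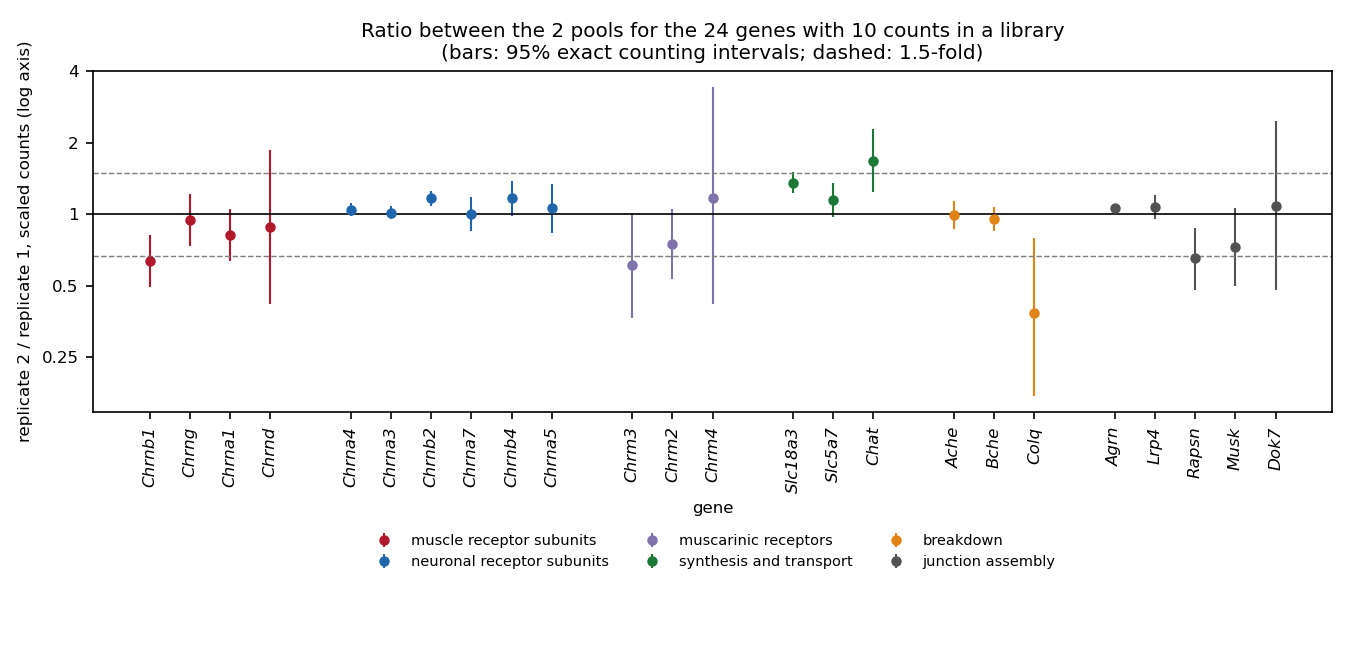
Ratio of replicate 2 to replicate 1 (log axis) for the 24 members with at least 10 counts in 1 library, TMM-scaled, with 95% exact counting intervals as bars and lines at 1 and at 1.5-fold. Chat and Slc18a3 lie to the high side with intervals above 1, and Chrnb1, Rapsn and Colq lie to the low side with intervals below 1.

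Markers of motor neurons and of skeletal muscle, the cells on either side of the junction, also differed between the pools. All 10 motor neuron markers had ratios above 1 (1.05 to 1.69, median 1.254), each with its interval above 1 (49.6% and 15.6% of all genes), and their summed level was 416 TPM in replicate 1 and 516 TPM in replicate 2. Mnx1, a homeobox gene of motor neurons, had 129 and 232 counts, a ratio of 1.69. The 5 general neuron markers also all had intervals above 1, with smaller ratios (1.09 to 1.15, median 1.11). Ratios also lay mostly above 1 for markers of Schwann cell precursors (median 1.28) and of sensory ganglia and neural crest (median 1.14). Whether the lists differed was not tested, nor was whether each marker was confined to its cell type in this tissue. All 11 skeletal muscle markers compared had ratios below 1 (0.66 to 0.94, median 0.82), 9 of them with intervals below 1 (15.2% of all genes), and with spike-in scaling 9 of the 11 were below 1. Myod1, the muscle regulatory gene, had the lowest ratio of those 11, at 0.66 (357 and 250 counts). The part of either cell type in the differences of Chat, Slc18a3, Chrnb1 and Rapsn was not tested.

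**Figure D4:**
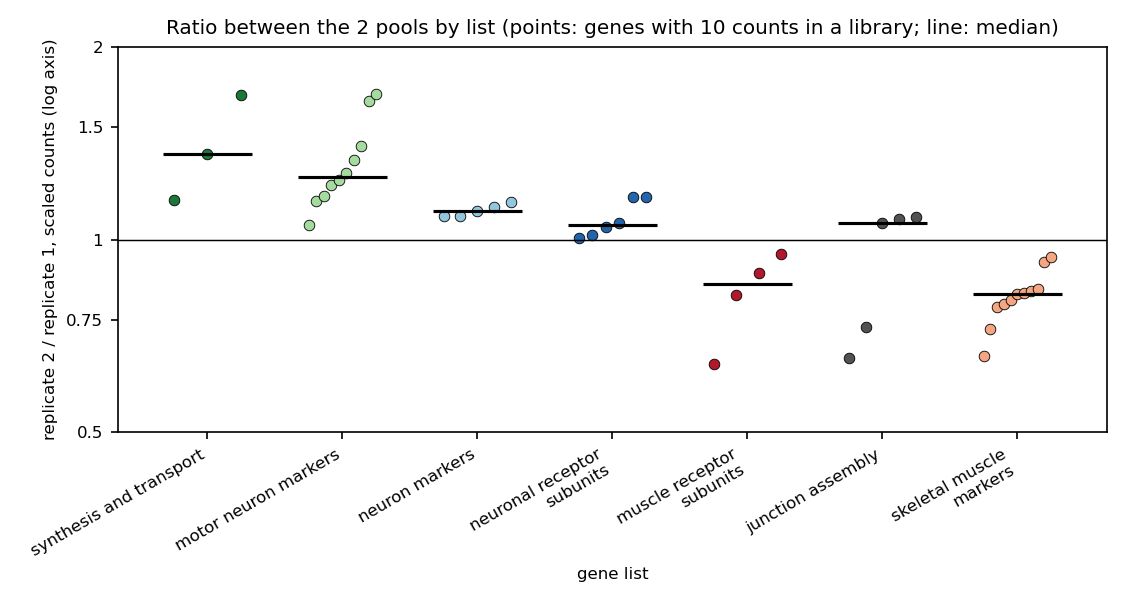
Ratio of replicate 2 to replicate 1 (log axis, TMM-scaled) for the genes of 4 member groups and of the motor neuron, neuron and skeletal muscle marker lists that reached 10 counts in a library, with 1 point per gene and a line at the list median. Motor neuron markers all lie above 1 and skeletal muscle markers all lie below 1, and the muscle receptor subunits lie below 1 with a median of 0.85.

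Genes that work with the members were mostly detected, those of choline supply at a share near that of all protein-coding genes (59.9%). Of 10 chaperones and modulators of nicotinic receptors, 9 were detected, with a median of 15.6 TPM. Rer1 (113 TPM), a retention factor for unassembled subunits, Ly6e (82.2 TPM) and Ly6h (60.3 TPM) led, whereas Lypd6b had 1.27 TPM and Lynx1, a brake on nicotinic receptors, had 0.25 TPM. Lynx1 was the only one past 1.5-fold (12.0% of all genes compared), lower in replicate 2 with 10 and 7 counts.

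All 25 other junction genes passed 1 TPM in both libraries (median 18.4 TPM), beside 59.9% of all protein-coding genes. None was past 1.5-fold, beside 12.0% of all genes compared. Ncam1 (127 TPM), a cell adhesion gene, and the adaptors Crk (102 TPM) and Crkl (55.0 TPM), which bind DOK7, led, and Col13a1 (1.60 TPM) and Prima1 (1.57 TPM) were lowest. Their ratios were above 1 for 16 and below 1 for 9, beside 49.6% of all genes above 1. Intervals lay above 1 for 6 and below 1 for 4, beside 15.6% and 15.2% of all genes.

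Of 8 genes of choline supply 5 were detected, near the 59.9% of all protein-coding genes. The choline kinases Chkb (48.4 TPM) and Chka (44.8 TPM) and the transporter-like Slc44a2 (42.9 TPM) led. Chdh and Slc44a4 had 0 counts in both libraries. All 5 glycosylation genes mutated in congenital myasthenia passed 1 TPM (median 32.4 TPM), from Alg2 (122 TPM), Dpagt1 (35.0 TPM) and Alg14 (32.4 TPM) down to Gmppb (17.7 TPM) and Gfpt1 (13.7 TPM). None of the 5 choline supply genes and 5 glycosylation genes that reached 10 counts was past 1.5-fold between the pools, beside 12.0% of all genes compared.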

How the data were processed

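Total RNA-seq of mouse neural tube was analysed in 2 libraries of 1 group, numbered as in the labels. Expected counts and TPM per gene and transcript, and each transcript's percent of its gene, were deposited by the authors on mm10 with GENCODE M4, per the descriptions deposited with the files, where transcriptome alignments are listed too. The aligner, the quantifier and the strand setting were not given in the sources used here. The assay is titled total RNA-seq, with a SmartSeq protocol linked, per the labels. TPM include spike-ins (13.2% and 11.8% of TPM). Effective lengths lie 99 bases below lengths, so short transcripts reach high TPM from few counts.

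Symbols and coordinates came from GENCODE M21 (GRCm38), which matched 42462 of 43346 genes (97.96%); 26248 entries named by a number and 97 spike-ins did not enter. Expected counts were rounded and scaled with TMM in edgeR 4.0.16 (R 4.3.3), and DESeq2 1.42.0 gave alternative size factors. Ratios needed 10 counts in at least 1 library. No test between conditions was possible, and intervals and limits cover counting error only, since no molecular identifiers are named and reads can repeat a molecule. Python 3.11.15 did the rest. The ratio step was tested on simulated counts of this comparison over 17048 genes, where 49 of 50 genes raised 2-fold, and 143 of 12289 unchanged genes (1.16%), came out past 1.5-fold. Both figures cover only genes of about 100 counts or more, with an assumed spread between libraries. They do not give the error rate for genes near 10 counts or for the real spread between the pools.

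The members, lists and motifs were chosen with earlier results of these data known. All 32 members are named, and of each other list the 3 highest and up to 2 lowest genes; marker genes named beside a result, namely Mnx1, Myod1 and Ckm, were chosen after their values were seen. The result of 1 marker list is not reported here.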

Additional observations from a re-analysis of the deposited data

How the results depend on the processing

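No paired analysis was possible because the series holds 1 group. Leaving out a library removes the ratio between the pools. With 1 library alone, members detected were 18 and 19, and median levels were 1.60 to 1.89 TPM (muscle subunits), 2.92 to 3.19 (neuronal), 0.34 to 0.42 (muscarinic), 3.12 to 3.71 (synthesis), 5.17 to 5.49 (breakdown) and 2.90 to 4.17 (junction). Differences ranged from 0.44 to 0.69 (neuronal over muscle), 0.58 to 0.84 (junction over muscle) and -0.10 to 0.40 (junction over neuronal) on the log2 scale, Chrng over Chrne from 3.56 to 4.52 and Slc18a3 over Chat from 3.11 to 3.42. The value of 4.52 takes Chrne at 3 counts over an effective length of 992.5 bases. Agrn shares ranged from 64.9% to 70.1% (24-base exon) and 6.21% to 10.9% (33-base exon), and 7 to 9 leading transcripts stayed as with both libraries.

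TPM rescaled over genes alone gave medians of 2.00 (muscle), 3.49 (neuronal), 3.90 (synthesis) and 6.09 TPM (breakdown). Posterior mean values gave 5.62 TPM for breakdown and 3.36 for Chrng over Chrne. A pseudocount of 0.1 TPM gave 0.78 (neuronal over muscle) and 0.96 (junction over muscle), and group means gave 0.79 and 1.17. Without members under 10 counts these differences were 1.83 and 0.34, and junction over neuronal was -1.49. That filter left out 5 neuronal subunits and 1 muscle subunit, all of low level, and no junction gene. With coding transcripts alone, chosen after seeing the data, both Agrn shares were 25.4%. Chrna9 has no transcript type for 6 of its 7 transcripts there.

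The 5 members past 1.5-fold became 3 with spike-in scaling, 9 with no count minimum, 3 with a minimum of 100 counts, 8 at the smaller fold tried and 1 at 2-fold. DESeq2 factors, library totals and posterior mean counts each gave 5 as well.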

Other observations

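All 5 markers of Schwann cell precursors, which share Sox10 with the sensory list and Erbb3 with the junction list, had ratios above 1 (median 1.28, beside 49.6% of all genes above 1), with summed levels of 58.8 and 78.0 TPM. Of 10 sensory ganglion and neural crest markers 8 were above 1 (median 1.14). In the smooth muscle and heart list 4 of 6 were above 1 (median 1.17), beside 49.6% of all genes, with summed levels of 85.2 and 76.6 TPM. Of its smooth muscle genes, Acta2 (0.82, 0.76 to 0.87) and Tagln (0.71, 0.60 to 0.83) had intervals below 1. Myh11, with 24 and 29 counts, had a ratio above 1 and an interval that held 1 (1.14, 0.64 to 2.04). The heart gene Nppa (2.51, 1.26 to 5.35) had the only interval above 1. Nrg1, the neuregulin gene, had 623 and 957 counts, a ratio of 1.44 (1.30 to 1.60). Acta2, Tagln, Nppa and Nrg1 were chosen after their values were seen.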
